A study of Mus musculus with 112 samples.

Results

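57 genes of developmental transcription factors outside the Hox clusters were followed through the DNA methylation (DNAme) data of a mouse study of paternal cigarette smoke (CS). They were taken by name from 55413 annotated genes (GENCODE M21, mm10), all 57 were found, and they comprised 8 Pax, 8 Sox, 8 Tbx, 8 Lhx, 6 Dlx, 5 Gata and 5 Nkx genes, Six2, Six3 and Six6, and 6 of the Barhl, Fox and Otx families. Each gene was taken from 2000 bp upstream of its start to its end. It was split into an upstream stretch, a promoter (within 1000 bp of the start on either side) and a gene body (the rest up to the end of the gene). The window of 36 of the 57 genes also held another annotated gene, most often an antisense or other noncoding one, and in 6 it held another protein-coding gene, so the positions there cannot be assigned to a single gene.

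DNAme had been profiled by reduced representation bisulfite sequencing (RRBS), in which restriction enzymes select CpG-rich fragments and bisulfite marks the unmethylated cytosines, to ask whether CS and loss of the antioxidant regulator NRF2 change sperm DNAme and whether offspring brain is affected. The 112 libraries formed 13 groups. F0 sperm came from C57BL/6J wild type (WT) males that were unexposed (control WT, n = 10), CS-exposed (smoked WT, n = 9) or kept without smoke for increasing times after exposure (recovery 1, n = 9, recovery 2, n = 10, and recovery 3, n = 10), and from unexposed and CS-exposed Nrf2-/- males on the same background (control Nrf2-/-, n = 10, and smoked Nrf2-/-, n = 9). Sons of 2 kinds of sire gave F1 sperm, control WT (n = 6) and smoked WT (n = 7). Prefrontal cortex (brain) was taken from F1 sons of 4 kinds of sire with n = 8 each, namely WT and Nrf2-/- males, control or smoked. No son was itself exposed, all had CAST/EiJ mothers, and by the breeding the sons of Nrf2-/- sires carried 1 targeted Nfe2l2 allele. Each library is 1 animal by its labels. Libraries are numbered here by their column in the table of their group, since the deposited library numbers match no sample label.

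Pax, Sox, Tbx, Gata, Lhx, Nkx, Dlx, Barhl, Fox and Otx proteins, with SIX2 and its relatives, bind DNA and set the identity of tissues in the embryo, from the eye field and spinal cord to the heart, kidney and limbs. Their genes often lie in long CpG-rich stretches, and in cells that do not use them they are typically held silent by Polycomb complexes, which mark histones rather than DNA. Mature sperm transcribes almost nothing, while the prefrontal cortex is built from neurons and glia that use few of these factors.

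A level is the percent of reads at a CpG position that stayed unconverted, each strand being a position of its own, and the number of reads behind it is unknown. Positions with a value in the 57 genes numbered 14881 for F0 sperm, 9173 for F1 sperm and 13272 for brain. 6069, 2241 and 8343 of them were scoreable, that is, they had a value in at least 4 libraries of every group of the tissue. A library had a value at 4252 to 9185 of the genes' positions in F0 sperm, at 748 to 6628 in F1 sperm and at 7854 to 11390 in brain. As a check of tissue, 5 imprinted promoters with values in F0 sperm and brain lay between 0.642% and 1.2% in F0 sperm, and in brain between 2.78% (Plagl1) and 29.9% (Peg3), so some were raised only slightly. As a check of genotype, 6 Nfe2l2 positions were covered throughout the 48 WT F0 sperm libraries, and 4 of these were covered in none of the 19 Nrf2-/- libraries. The libraries of Nrf2-/- males in F0 sperm, and those of sons of Nrf2-/- sires in brain, all carry lower facility numbers than the WT ones, so in both tissues genotype and number run cannot be told apart.

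Promoters of these genes were almost free of DNAme in sperm. In control WT F0 sperm the median promoter level was 0.816% over the 52 genes with a scoreable promoter segment, against 0.822% over all protein-coding genes, and 51 of the 52 lay below 10%. Their gene bodies were low as well. The median body level was 3.14% over 57 genes against 75% over all protein-coding genes, and 46 bodies lay below 10% (80.7%, against 13.1% of all protein-coding genes). No body reached 50%, while 65.4% of all protein-coding gene bodies did. In control WT F1 sperm the medians were 0.801% for 43 promoters and 4.45% for 51 bodies, against 0.833% and 57.9% over all protein-coding genes.

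In control WT brain the median promoter level was 2.24% (52 genes, 49 below 10%), against 0.926% over all protein-coding genes. The median body level was 5.59% (57 genes, 39 below 10%), against 70.4%. The other genes of the same families, 52 that are not among the 57, had median body levels of 1.61% in F0 sperm and 3.11% in brain. The 28 genes that encode Polycomb proteins themselves had body medians of 37.0% and 46%.

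The low level extended well past the start site. In windows of 500 bp, the median over the 57 genes stayed between 0.653% and 1.98% from 2000 bp upstream to 10000 bp downstream in F0 sperm. The exception was the window at 9000 to 9500 bp, with 5.20% and a value for only 7 genes. Over all protein-coding genes the median was 59.5% at 2000 to 1500 bp upstream, 0.688% in the first 500 bp, 42.8% at 2000 to 2500 bp and 91.1% at 5000 to 5500 bp. In brain the 57 genes lay between 1.63% and 6.65% over the same stretch, while all protein-coding genes reached 79.7% at its end. Beyond 5000 bp downstream no window held more than 14 of the 57 genes in F0 sperm.

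**Figure D1:**
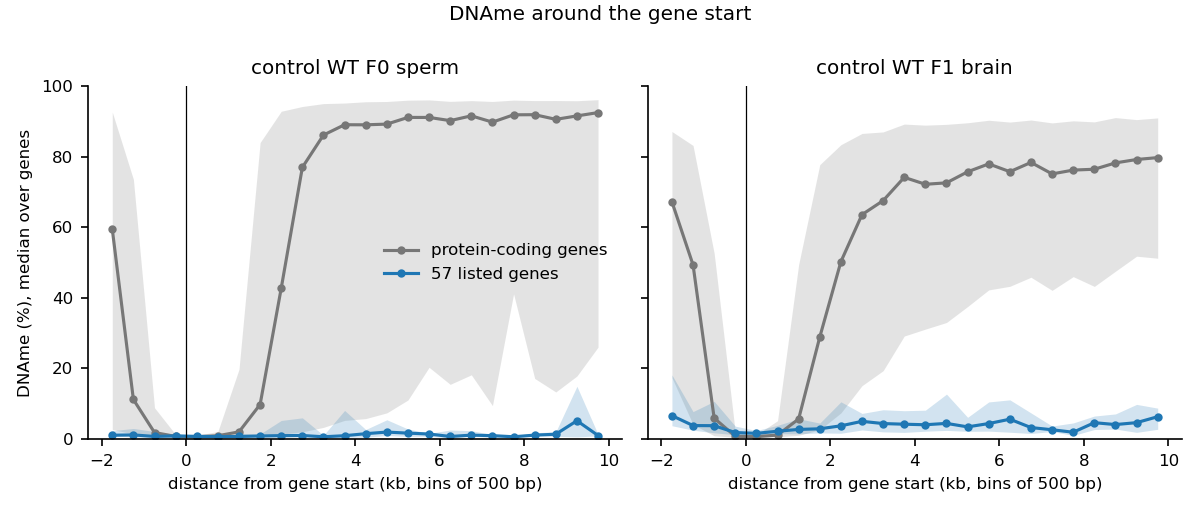
Median DNAme (percent) in windows of 500 bp against distance from the gene start (bp), for the 57 listed genes and for all protein-coding genes in control WT F0 sperm and control WT F1 brain. The listed genes stay near the bottom of the axis over the whole stretch, while protein-coding genes as a whole are low only around the start and reach 91.1% in F0 sperm at 5000 to 5500 bp.

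The stretches just around the start were CpG-rich by sequence. RefSeq promoter windows (250 bases before to 50 after a start, GRCm38) were at hand for 40 of the 57 genes, 55 windows in all. Their median GC content was 61% against 52.7% over 32851 windows of all genes, and their median CpG count was 18 against 7. The observed over expected CpG ratio exceeded 0.6 in 72.7% of them and in 35.8% of all windows. CCGG, the letters cut by the enzyme MspI, stood in 81.8% of them and in 52.8% of all windows, and TCGA, the letters cut by TaqαI, in 21.8% and 22%. Both motifs read the same on either strand.

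The families differed mainly in their bodies. In control WT F0 sperm the median body level was 16.5% for Pax genes (the paired-box factors of eye, kidney, muscle and B cells), 9.88% for Tbx genes (T-box factors of heart and limb), 6.13% for Lhx genes (LIM homeobox factors of brain, pituitary and gonad) and 4.87% for Gata genes (zinc finger factors of blood, heart and gut). It was 3.25% for Dlx genes (jaw and forebrain interneurons), 1.85% for the Barhl, Fox and Otx genes, 1.14% for Six2, Six3 and Six6 (eye and kidney), 0.868% for Nkx genes and 0.766% for Sox genes. Promoter medians ranged only from 0.571% (Lhx) to 1.09% (Pax).

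Among Pax bodies, Pax8, which drives thyroid and kidney development, was highest, at 32.3% ± 1.34 (SD, n = 10), with libraries from 30.02% through a median of 32.1% to 34.8%. Pax1, a factor of the vertebral column, was lowest at 2.87%. Pax3, of neural crest and muscle precursors, had 24% ± 1.77 in its body, and Pax2, of kidney and midbrain, 23.6% ± 0.897 (n = 10 each). Pax5 had 28.5% ± 0.941 in its body (n = 10). The scored promoters of Pax genes were low, from 0.944% (Pax3) to 2.35% ± 0.925 (Pax8), so the lowest Pax8 body value lay far above the highest Pax8 promoter value of any library (3.71%).

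Among Tbx bodies, Tbx4, a hindlimb factor, was highest at 26.3% ± 2.03 (n = 10, lowest 23%, median 27.2%, highest 28.6%) and Tbx2, of heart and limb, lowest at 2.25%. Tbx15, of skeleton and fat, had 22.9% ± 0.637, Tbx20, of heart muscle, 16% ± 1.72, and Tbx5, of heart and forelimb, 12.8% ± 1.42 (n = 10 each). Tbx promoters ran from 0.544% (Tbx20) to 3.37% ± 2.34 (Tbx4, n = 9), and the Tbx4 libraries spread from 0.194% to 7.51%. Lhx8, a factor of cholinergic neurons, had the highest Lhx body, 19.5% ± 0.458 (n = 10), and Lhx9, of the gonad, followed at 10.02% ± 1.37. Lhx5, of the forebrain, was lowest at 0.832% in the body and at 0.421% in the promoter, and Lhx8 had the highest promoter, 0.876%.

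In the remaining families all but 1 body stayed below 10%. Gata2, of blood stem cells, reached 8.06% and Gata3, of T cells, 2.86%, with promoters from 0.721% (Gata3) to 0.844% (Gata5). Dlx4 reached 6.38% and Dlx5 0.531%, with promoters from 0.521% (Dlx6) to 1.25% (Dlx1). Barhl1, of the inner ear and cerebellum, was the exception at 11% ± 0.759 (n = 10, lowest 9.88%, median 11.1%, highest 12.5%), while Foxd3, of neural crest, had 0.482%. The promoters of that group ran from 0.398% (Barhl2) to 1.30% (Barhl1).

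Six2, of kidney progenitors, had a body level of 3.60% and Six6, of the eye, 0.0996%. The promoters of this family ran from 0.414% (Six2) to 1.61% (Six3). Nkx2-2, of the ventral neural tube, had the highest Nkx body (1.41%) and Nkx6-2 the lowest (0.431%). Nkx promoters ran from 0.330% (Nkx6-1, of pancreatic beta cells) to 3.05% (Nkx2-5, of the heart). Sox17, of endoderm, had the highest Sox body (1.69%) and Sox18, of lymphatic vessels, the lowest (0.183%), and Sox18 also had the lowest Sox promoter (0.336%).

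The difference of body over promoter was largest, in points, for Pax8 (29.9), Pax3 (23.1), Tbx4 (22.9), Pax2 (22.5), Tbx15 (21.7), Lhx8 (18.6), Tbx20 (15.4), Tbx5 (12), Barhl1 (9.73) and Lhx9 (9.29).

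**Figure D2:**
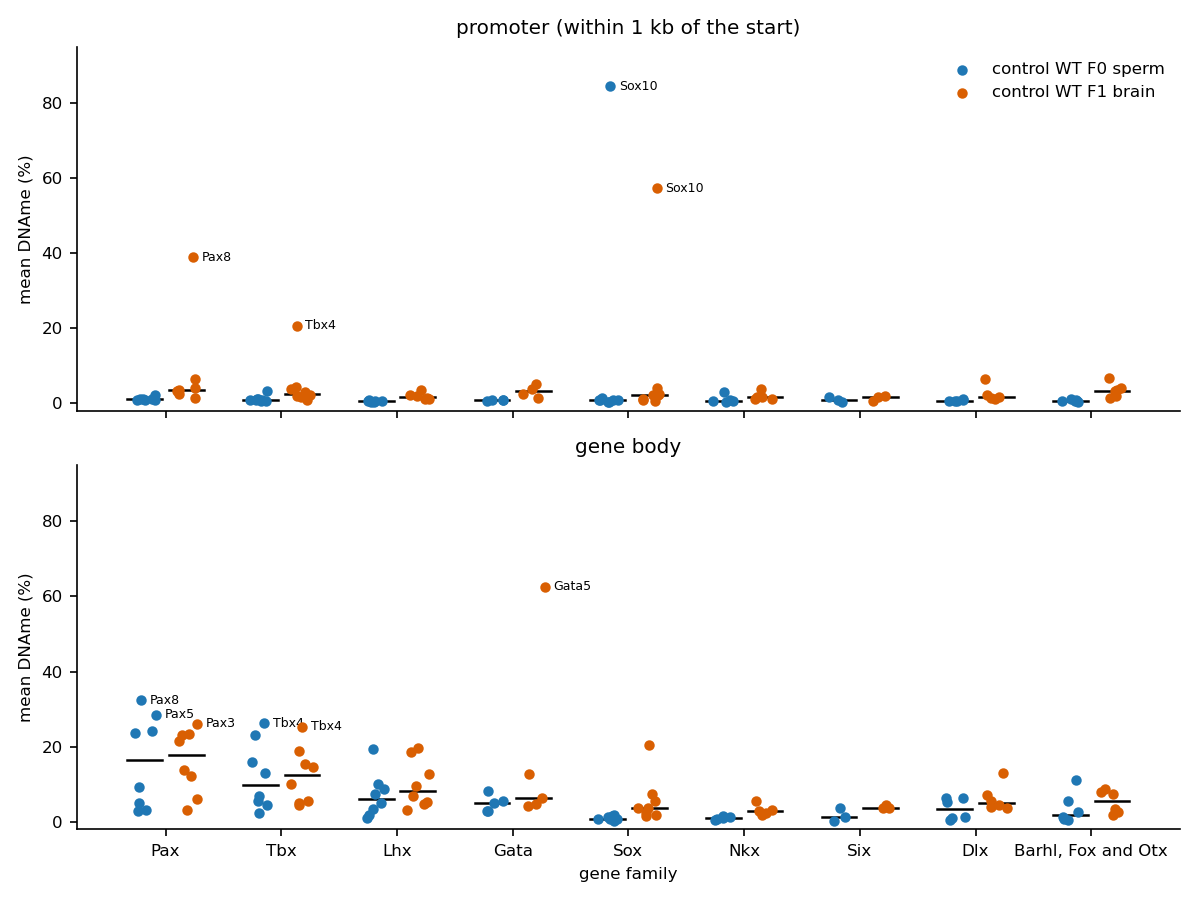
DNAme (percent) of each listed gene in control WT F0 sperm and control WT F1 brain, by family, with promoters and gene bodies in separate panels; each point is a gene with at least 3 scoreable positions there, as its mean over libraries and the bars are family medians. Most points lie below 10%, Pax and Tbx bodies spread highest in F0 sperm, and the Sox10 promoter stands apart at 84.6%.

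Sox10, a factor of neural crest and of the myelin-forming oligodendrocytes, was the only gene whose scored promoter exceeded 10% in F0 sperm. Its promoter level in control WT F0 sperm was 84.6% ± 1.73 (n = 9, 17 positions), with libraries from 82.4% through a median of 83.7% to 87.5%, while its body was at 0.619% ± 0.572 (n = 8). In control WT F1 sperm the promoter was at 87.6% ± 1.68 (n = 4, 9 positions), and in brain at 57.3% ± 4.46 (n = 8, 30 positions, lowest 52%, median 57.6%, highest 64.6%). At the promoter the brain libraries all lay below the sperm libraries. The body was higher in brain than in F0 sperm, at 20.5% over 26 positions, where F0 sperm had 15. The measured positions stand upstream of the gene start, with F0 sperm regions centred 657 and 901.5 bp away. They also overlap exons of Gm10863, a noncoding gene on the opposite strand. The stretch measured in both tissues, chr15:79165936-79166180 (GRCm38, minus strand, upstream of the start), is shown because it holds the highest promoter level of the 57 genes. Capitals mark the 9 measured CpGs of its 16.
Sox10: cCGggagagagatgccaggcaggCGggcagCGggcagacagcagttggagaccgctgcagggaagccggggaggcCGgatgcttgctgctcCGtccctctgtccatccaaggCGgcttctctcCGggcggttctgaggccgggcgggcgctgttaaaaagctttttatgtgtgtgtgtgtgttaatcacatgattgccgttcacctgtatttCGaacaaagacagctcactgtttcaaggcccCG

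Regions, sets of at least 3 scoreable positions at most 100 bp apart and over 50 bp long, gave a finer view. Of 402 regions of the 57 genes in F0 sperm, 358 were below 10% in control WT, and every gene had at least 1 such region. 21 regions in 16 genes lay between 10% and 90%, and 23 regions in 11 genes above 90%. Of the latter, 22 lay in bodies (19 in introns), at a median of 29990 bp from the start, and the nearest was 3599 bp away. Pax5, the factor of B cell identity, held 6 of them, and Pax2 and Tbx15 held 3 each.

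In brain, with 475 regions, 360 were below 10%, 110 regions in 33 genes lay between 10% and 90%, and 5 were above 90%. Over all 80920 brain regions the same classes held 26387, 40574 and 13959. Over all 62831 F0 sperm regions they held 32507, 9717 and 20607. Intermediate levels were thus more frequent in brain, and levels above 90% rarer, over all regions as well. Brain regions were built on a different set of positions than F0 sperm regions, and generation and cross differ as well as tissue. In control WT F1 sperm 146 regions were below 10%, 18 between 10% and 90% and 7 above 90%, against 13350, 12909 and 7190 of all regions. Pax6, the factor of eye and cortical progenitors, had 12 brain regions between 10.2% and 29.8%, while none of its F0 sperm regions exceeded 10%. Pax5 had 11, Pax2 had 10 and Pax7, of muscle stem cells, had 8 regions of intermediate level in brain. The cortex holds several cell types, and an intermediate level can come from cells or alleles of 2 kinds or from partial methylation, which cannot be told apart here. These region classes and the genes named for them were chosen after their values were seen.

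Brain and sperm were then compared within the same positions, between sons of control WT sires (F1 sperm n = 6, brain n = 8; limma, a linear model with moderated variances, fitted to all regions, Benjamini-Hochberg adjusted over 28890 regions). All these sons share the cross with CAST/EiJ mothers, and whether sperm and brain came from the same sons is not known. The tissues are from the same generation, but sperm and brain libraries carry different facility request numbers, so tissue and request cannot be told apart. 88 of 146 regions of the 57 genes differed (60.3%), against 57.7% of all regions, so the share that differed was near the background in this setting. On a logit scale it lay further above it (71.9%, against 60.3% of all regions). 73 were higher in brain (50.0%, against 31.2% of all regions), and the median difference of brain minus sperm was 1.46 points against 0.181 over all regions.

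By segment the share lay further from the background. Of 90 promoters and bodies of the 57 genes, 59 differed (65.6%) and 46 were higher in brain (51.1%), against 52.6% and 34% of all segments. 25 of 40 promoters differed (62.5%, against 31.7% of all promoters), with a median difference of 1.39 points against 0.288. 23 of the 40 were higher in brain (57.5%, against 26.1% of all promoters). 34 of 50 bodies differed (68%, against 72.2% of all bodies), with a median of 1.13 points against 1.12. 23 of the 50 were higher in brain (46%, against 41.4% of all bodies) and 11 lower. Among the other genes of these families 20 of 37 promoters and 16 of 32 bodies differed, and among the Polycomb genes 3 of 25 promoters and 16 of 22 bodies. By family, 4 of 4 Barhl, Fox and Otx promoters and 4 of 5 Tbx and Nkx promoters each passed, against 3 of 7 Pax and 1 of 3 Gata promoters. Among bodies 5 of 5 Gata and 6 of 7 Pax genes passed.

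**Figure D3:**
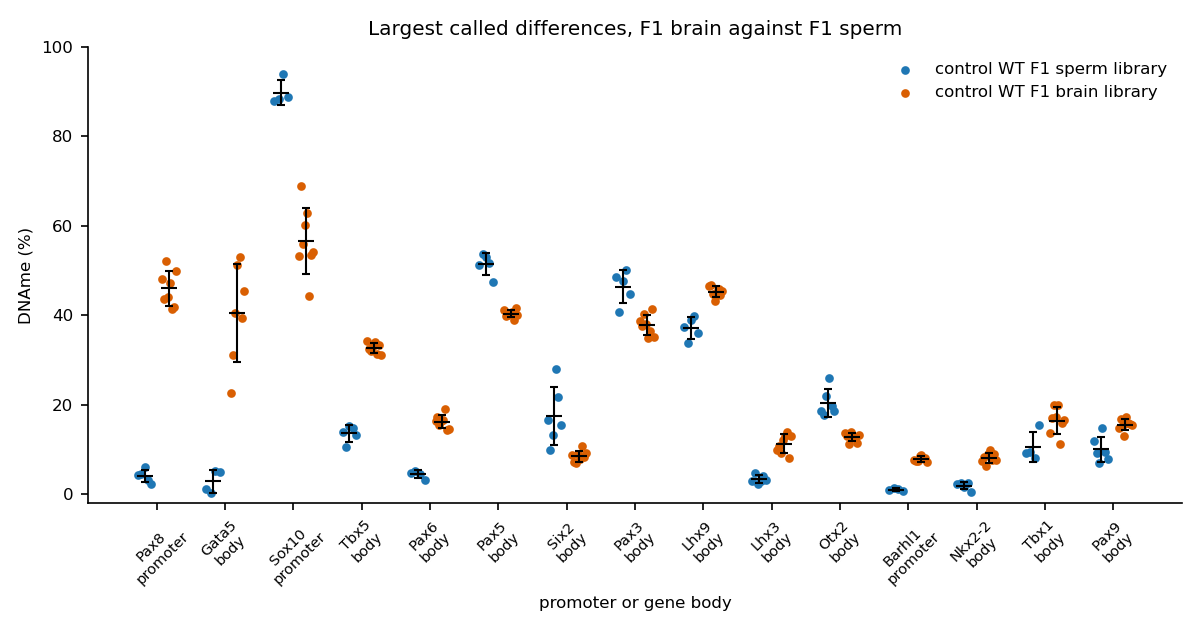
DNAme (percent) of the 15 called promoters and gene bodies with the largest difference between control WT F1 brain and control WT F1 sperm. Each point is a library and the bars give the mean ± SD; the Pax8 promoter rises from 4.15% to 46.1% and the Sox10 promoter falls from 89.8% to 56.7%, and the groups of Six2, Pax3, Tbx1 and Pax9 overlap.

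The largest difference was at the Pax8 promoter. Its 5 F1 sperm libraries with a value read 4.39%, 4.61%, 6.11%, 3.34% and 2.28%, and its 8 brain libraries lay between 41.5% and 52.1%, with a median of 45.8%. The groups did not overlap, and brain was 41.9 points higher (SE 2.47, limma adjusted p = 1.74e-18). The 8 positions concerned, chr2:24475083-24475216, span the end of the 5′ untranslated part and the first coding bases.

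The body of Gata5, a factor of endoderm and heart valves, read 1.32%, 0.289%, 5.16% and 5.00% in sperm and 40.6% ± 10.9 in brain (n = 7, lowest 22.6%, median 40.6%, highest 53.2%). It rose by 37.6 points (SE 5.35, limma adjusted p = 1.93e-07) over 4 positions. At the Sox10 stretch printed above, sperm read 88.0%, 88.4%, 93.9% and 88.9% and brain 44.4% to 68.9% with a median of 55.1% (n = 8), a change of -33.1 points (SE 3.67, limma adjusted p = 3.08e-10). Neither gene's groups overlapped. A library's value was the mean level of the stretch plus the mean deviation of its valued positions from their position means. Those means were here taken over the sperm and brain libraries together, and Sox10 averaged 89.8% in sperm. With means taken within each tissue, chosen after the data were seen, the same sperm libraries averaged 87.6% and the change was -30.9 points (limma adjusted p = 3.86e-10).

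The Tbx5 and Pax6 bodies, each measured over many positions, had a higher mean in brain. The Tbx5 mean includes stretches of an untranslated exon with far larger rises, given below, so it does not describe all 51 positions alike. The Tbx5 body read 14%, 10.7%, 15.4%, 14.8% and 13.3% in sperm and 31.1% to 34.2% in brain with a median of 32.8% (n = 8, 51 positions, difference 19.1 points, SE 1.03, limma adjusted p = 8.3e-20). The Pax6 body read 4.89%, 5.30%, 4.61% and 3.20% in sperm and 14.3% to 19.2% in brain with a median of 16.4% (n = 8, 53 positions, 11.8 points, SE 1.42, limma adjusted p = 2.19e-09). In both genes every brain library was above every sperm library.

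Among the 15 called segments with the largest differences, the bodies of 4 other genes were lower in brain. Pax5 read 51.2%, 53.8%, 53%, 51.8% and 47.4% in sperm and 39% to 41.7% in brain with a median of 40.3% (n = 8, 77 positions, -11 points, SE 0.876, limma adjusted p = 3.71e-14). Six2 fell from 17.6% ± 6.45 (n = 6, 10% to 28.0%) to 8.57% ± 1.21 (n = 8, 7.08% to 10.8%), with overlap of the groups (6 positions, -9.0 points, limma adjusted p = 9.59e-05). Pax3 fell from 46.4% ± 3.68 (n = 5) to 37.9% ± 2.30 (30 positions, -8.49 points, limma adjusted p = 9.9e-07). Its groups overlapped narrowly, from 40.8% in sperm to 41.5% in brain. Otx2, of the forebrain and eye, fell from 20.5% ± 3.10 (n = 6) to 12.9% ± 0.986 (16 positions, -7.59 points, limma adjusted p = 4.63e-07), without overlap. The 4 bodies were compared over positions scoreable in both tissues, while brain alone had 348 (Pax5), 27 (Six2), 88 (Pax3) and 74 (Otx2). Over each tissue's own positions, Six2 read 3.60% in F0 sperm and 4.55% in brain. Pax3 read 24% and 26.1%, and Otx2 5.50% and 8.80%. F1 sperm had 12.6% for Six2 and 18.9% for Otx2 over its own positions. The falls thus describe the shared positions and not the whole bodies.

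The other 6 of the 15 were higher in brain. Lhx9 rose from 37.2% ± 2.42 (n = 5) to 45.3% ± 1.17, Lhx3, of the pituitary and motor neurons, from 3.43% ± 0.851 (n = 6) to 11.3% ± 2.14, and the Barhl1 promoter from 1.04% ± 0.308 (n = 4) to 7.95% ± 0.584. Nkx2-2 rose from 1.93% ± 0.793 (n = 5) to 8.22% ± 1.10, Tbx1, of the pharyngeal arches, from 10.6% ± 3.38 (n = 4) to 16.5% ± 2.93, and Pax9, of teeth and thymus, from 10.1% ± 2.86 (n = 6) to 15.6% ± 1.28. Brain had n = 8 throughout, and limma adjusted p lay between 3.41e-13 (Barhl1) and 0.000564 (Tbx1). The groups overlapped for Tbx1 and Pax9 and for none of the other 4.

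Segments that did not pass included Sox18 (promoter, 0.900% in sperm and 8.34% in brain, limma adjusted p = 0.145), Pax2 (body, 36.3% and 33.8%, 0.0758), Lhx8 (body, 40.4% and 38.7%, 0.179) and Tbx20 (body, 4.29% and 2.86%, 0.374). The promoters of Pax7 (2.05% and 3.56%), Pax6 (0.913% and 2.32%) and Sox21 (0.525% and 1.84%) and the bodies of Nkx2-5 (1.98% and 3.58%), Barhl2 (2.43% and 3.79%) and Foxd3 (0.911% and 2.03%) also did not pass.

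Single regions showed larger contrasts than whole bodies. Part of the 3′ untranslated exon of Tbx5, chr5:119883736-119883828, had 1.31% ± 0.997 in sperm (n = 6, lowest 0%, median 1.48%, highest 2.31%) and 96.7% ± 1.41 in brain (n = 8, lowest 94.4%, median 96.9%, highest 98.5%). It differed by 95.4 points (SE 0.897, limma adjusted p = 2.44e-48), the smallest p among regions of the 57 genes. A second stretch of that exon, chr5:119884419-119884543, read 7.53%, 2.00%, 0% and 2.50% in sperm and 67% ± 9.42 in brain (n = 7, limma adjusted p = 2.44e-12).

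4 intron regions are shown as examples of introns that differed between the tissues in either direction. Capitals mark the measured CpGs, and the build is GRCm38: Pax2 chr19:44811635-44811743 (plus strand), Gata4 chr14:63255295-63255405 (minus strand), Tbx4 chr11:85888727-85888791 (plus strand) and Pax7 chr4:139829075-139829189 (minus strand).
Pax2: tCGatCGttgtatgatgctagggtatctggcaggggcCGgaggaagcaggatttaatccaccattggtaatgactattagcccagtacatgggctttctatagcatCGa
Gata4: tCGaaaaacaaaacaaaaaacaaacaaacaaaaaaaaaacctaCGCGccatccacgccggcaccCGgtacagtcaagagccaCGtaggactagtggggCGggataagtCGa
Tbx4: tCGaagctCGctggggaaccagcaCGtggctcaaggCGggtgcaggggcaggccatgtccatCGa
Pax7: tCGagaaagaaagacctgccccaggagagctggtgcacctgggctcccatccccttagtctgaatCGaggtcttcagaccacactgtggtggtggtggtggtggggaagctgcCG

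The Pax2 stretch, 55644 bp into the gene with 4 measured CpGs, was at 43.9% ± 5.65 in sperm (n = 6, lowest 34.8%, median 45.3%, highest 49.4%) and at 93.3% ± 0.832 in brain (n = 8, lowest 92.1%, median 93.4%, highest 94.5%), a difference of 49.4 points (SE 2.65, limma adjusted p = 2.38e-20). The Gata4 stretch, in a heart and gonad factor, read 4.82%, 0%, 2.38%, 3.17% and 1.59% in sperm and 26.5% ± 3.10 in brain (n = 8, 22.4% to 30.2%, limma adjusted p = 4.54e-18). The Tbx4 stretch rose from 2.56% ± 1.36 (n = 6, 1.65% to 5.28%) to 17.5% ± 1.30 (n = 8, 15.6% to 19.4%, limma adjusted p = 2.03e-18). In all 3 the groups were apart.

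The Pax7 stretch, with 3 measured CpGs, went the other way, from 41.2% ± 8.71 in sperm (n = 6, lowest 30.9%, median 39.2%, highest 54.8%) to 7.97% ± 2.20 in brain (n = 8, lowest 6.08%, median 7.30%, highest 12.2%), a change of -33.2 points (SE 2.46, limma adjusted p = 1.21e-15). A Pax5 intron read 86.5%, 99.1%, 87.9%, 86.5% and 51.3% in sperm and 32.4% ± 4.75 in brain (limma adjusted p = 3.22e-13). The sperm libraries of Pax5 spread widely there, yet the lowest was above the highest brain library (38.9%). An untranslated exon of Tbx1 read 30.6%, 27.9%, 29.97%, 25% and 33.3% in sperm and 11.3% ± 3.55 in brain (limma adjusted p = 7.14e-13).

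Other regions in this comparison belonged to genes already named. 3 Pax6 regions rose from 1.09% to 11.4%, from 3.77% to 13.7% and from 0.651% to 13.9%. Intron sequence of Otx2 fell from 58.8% ± 7.29 to 36.5% ± 2.71, and coding sequence of Pax2 from 36.1% ± 13.3 to 12.7% ± 1.98. The regions at Barhl1 (0.894% to 8.07%), Nkx6-2 (1.77% to 8.58%), Sox21 (1.2% to 10.2%), Pax9 (2.86% to 8.43%) and a Gata4 exon (1.62% to 5.28%) rose. All passed, with limma adjusted p of at most 4.68e-06.

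CS exposure was examined in F0 sperm next. Over the 52 genes with a scored promoter, the mean promoter level was 2.55% ± 0.410 in control WT (n = 10, lowest 2.11%, median 2.53%, highest 3.37%), and the other 6 F0 groups had means from 2.41% to 2.64%. Mean body levels ran from 6.31% to 6.51% over the 7 groups, with 6.42% ± 0.461 in control WT. These means depended on the positions counted. In control WT F0 sperm the body mean was 12.9% when every annotated transcript start was given a promoter and 12.6% over positions valued in every library, and the promoter mean was 1.56% when each position counted once. Every group overlapped the others, and the largest promoter difference among the F0 comparisons was -0.137 points, with smoke in WT males. The promoter mean was carried by few genes, and without Sox10, Pax8 and Tbx4, left out after their values were seen, it was 0.861% ± 0.425 in control WT, with the other F0 groups at 0.716% to 0.907%. In F1 sperm, promoters (43 genes) had 3.16% ± 0.182 (control WT sires) and 3.04% ± 0.173 (smoked WT sires), and bodies 8.73% ± 0.527 and 8.84% ± 0.344. With control WT sires, positions valued in every library gave 0.715% for promoters and 22.3% for bodies, and promoters at every start gave 16.1% for bodies.

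**Figure D4:**
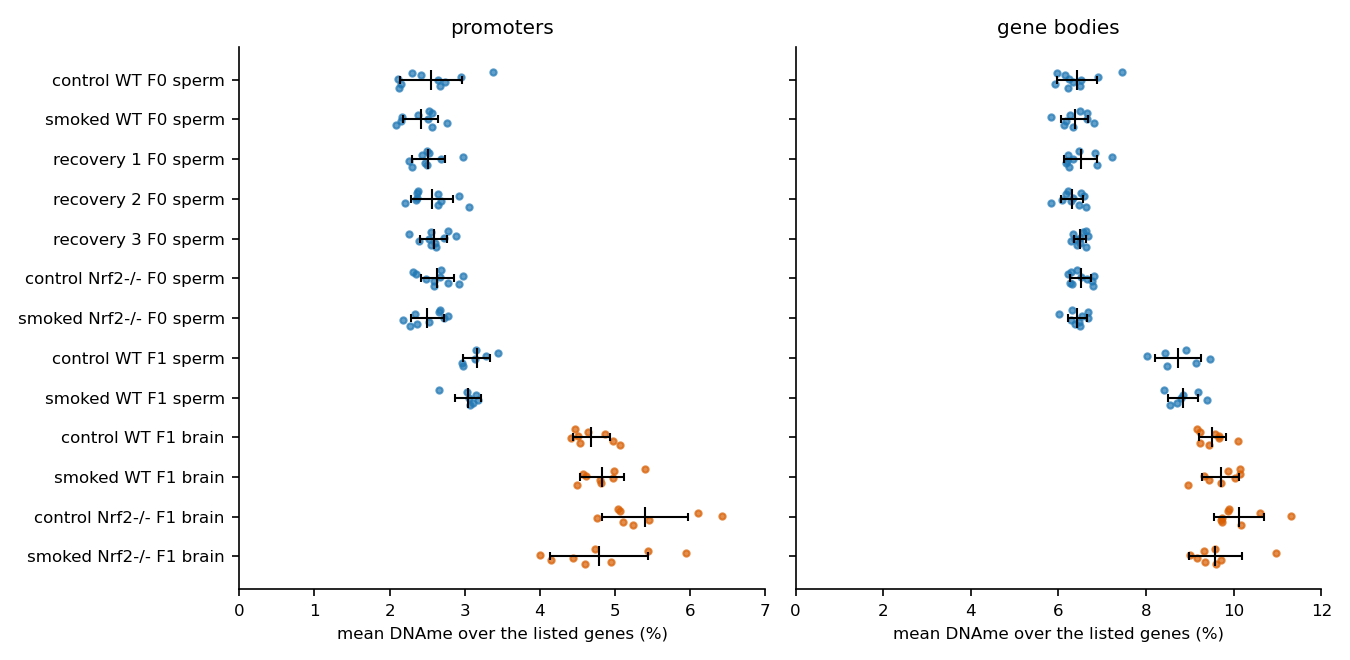
Mean DNAme (percent) over promoters and over gene bodies of the listed genes in each of the 112 libraries, by group, with the mean ± SD of the group. Groups of the same tissue and generation overlap; every brain library lies above every sperm library in promoters, and the bodies of F1 sperm and brain overlap, each tissue having its own scoreable positions.

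No region of the 57 genes was called for smoke, recovery or genotype in sperm, limma being fitted to all regions of the tissue with a threshold of 0.05 on the adjusted p. With smoke (smoked WT against control WT) 0 of 402 regions were called, where 1 of all 62831 regions was (0.00159%). 18 of the 402 had an unadjusted p below 0.05 (4.48%, against 3.90% of all regions). For recovery 1, 2 and 3 the counts were again 0 of 402, against backgrounds of 0%, 0.00637% and 0.043%, with 23, 19 and 20 at the unadjusted level (5.72%, 4.73% and 4.98%, against 5.24%, 4.16% and 6.27% of all regions). Loss of NRF2 without smoke gave 0 of 402 (background 0.407%), with 21 at the unadjusted level (5.22%, against 7.79%). Smoked Nrf2-/- against control WT sperm, which differ in smoke and genotype together, gave 0 (0.358%), with 23 at that level (5.72%, against 7.87%). Smoke within Nrf2-/- males gave 0 (0.00637%), with 28 at the unadjusted level (6.97%, against 5.73%), and the contrast of smoke changes between both genotypes 0 (0%), with 18 (4.48%, against 4.18%). In F1 sperm 0 of 171 were called (0%), and 7 had an unadjusted p below 0.05 (4.09%, against 5.31%). These comparisons share control libraries, the first 6 the same control WT group. By the study's methods the control WT males were collected together with the smoked WT group. The recovery groups were therefore also older than their controls, and age and recovery cannot be told apart. The 238 F0 sperm regions of the other family genes and the 110 of the Polycomb genes held 0 calls in the same comparisons.

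The regions with the smallest p are given as values. Smoke in WT males came with 0.295% ± 0.328 (n = 8, 0% to 0.719%) in a stretch of the Tbx2 promoter, against 2.13% ± 2.19 (n = 9, lowest 0%, median 1.23%, highest 6.61%) in control WT, and the groups overlapped. The same stretch stood at 0.767% in recovery 2, at 0.528% in control Nrf2-/- and at 0.418% in smoked Nrf2-/- sperm (limma adjusted p = 0.217 and 0.216 in the last comparisons). The control WT group, which all these comparisons share, held the highest library. The region is shown because it recurred, chr11:85832233-85832449 (GRCm38, plus strand), with 13 measured CpGs of 18 in capitals.
Tbx2: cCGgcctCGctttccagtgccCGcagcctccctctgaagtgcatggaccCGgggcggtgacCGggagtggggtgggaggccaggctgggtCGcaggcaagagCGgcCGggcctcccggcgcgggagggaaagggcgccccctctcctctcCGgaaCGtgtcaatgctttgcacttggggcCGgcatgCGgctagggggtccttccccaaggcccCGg

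A Pax2 intron 79504 bp into the gene had 0%, 0%, 2.59%, 9.09% and 6.61% in smoked WT and 0.516% ± 0.552 in control WT (n = 7), and a Tbx5 intron had 1.47% ± 0.715 (n = 9) and 2.94% ± 0.878 (n = 10). The limma adjusted p of both rounded to 1, and their groups overlapped. In recovery 1, an untranslated exon of Pax2 (2.79% against 0.572%), a Tbx5 intron (5.48% against 2.39%) and coding sequence of Nkx2-5 (2.45% against 0.891%) had limma adjusted p of 0.869 to 0.904. In recovery 2 the Tbx5 intron was at 1.41% and coding sequence of Sox17 at 0.518% against 1.93%.

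In recovery 3 an intron of Gata3, chr2:9888916-9889090, came nearest to the threshold. It read 3.46% ± 2.61 (n = 7, lowest 0.469%, median 3.43%, highest 7.74%) against 0.591% ± 0.770 (n = 7, lowest 0%, median 0.444%, highest 2.23%), a difference of 2.87 points (SE 0.646, limma adjusted p = 0.0999). The groups overlapped in their lower parts. A further Gata3 intron read 4.83% against 1.36% (limma adjusted p = 0.664). The Pax2 stretch printed above read 30.6% ± 3.82 (n = 10) against 34.6% ± 2.21 (n = 10, limma adjusted p = 0.563).

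With loss of NRF2, an intron of Tbx1, chr16:18586103-18586167, read 17.6% ± 3.03 in control Nrf2-/- (n = 10, lowest 11.4%, median 18.5%, highest 21.1%) and 12.5% ± 2.78 in control WT (n = 10, lowest 7.71%, median 12.3%, highest 17.5%). The difference was 5.04 points (SE 1.31, limma adjusted p = 0.0621), and the groups overlapped. A Gata3 intron read 0.0304% and 1.27% (limma adjusted p = 0.279). In smoked Nrf2-/- against control WT sperm a stretch of 4 positions in the Tbx4 promoter read 3.08% and 0.167% (limma adjusted p = 0.253) and a Tbx15 intron 15.4% and 12.9% (0.308).

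Smoked against control Nrf2-/- sperm read 3.02% and 0.489% upstream of Tbx18, a factor of the epicardium (limma adjusted p = 0.621), 91.2% ± 3.52 and 94.9% ± 2.07 in a stretch of 10 positions in the Sox10 promoter (0.632) and 0.207% and 1.26% in an Lhx4 intron (0.65). Between genotypes the smoke change differed by 3.76 points upstream of Tbx18, -4.32 points in coding sequence of Pax2 and 3.37 points in a Dlx4 intron, each with a limma adjusted p that rounded to 1. In F1 sperm, coding sequence of Barhl1 read 14.3% ± 2.03 in sons of smoked WT sires (n = 6) and 10.6%, 12%, 8.25% and 5.56% in sons of control WT sires. Coding sequence of Pax2 read 4.81% and 8.87%, and a Tbx2 intron 12.3% and 17.7%. All 3 had a limma adjusted p of 0.909.

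A rule by size, taken from the thresholds of change in the study's methods and without a test, called a region a DMR when at least 1 in 3 positions and the region's mean changed by more than 5 points. The change was taken between group means at each position and then averaged. It can therefore differ from the difference of the region values printed here. In regions of the 57 genes the rule gave these counts. The rule called few regions of the 57 genes in F0 sperm. With smoke it called 4 of 402 (0.995%, against 2.61% of all regions). In recovery 1, 2 and 3 it called 3, 4 and 4 (backgrounds 3.4%, 2.53% and 4.1%). In control and smoked Nrf2-/- against control WT sperm it called 2 and 3 (5.1% and 4.93%), and 3 with smoke in Nrf2-/- males (3.73%). In F1 sperm it called 7 of 171 (4.09%, against 13.1%), 6 of them higher, as were 3794 of the 4389 over all regions. In control WT 358 of the 402 F0 sperm regions lay below 10%, as did 32507 of all 62831 regions. The shares above are thus not matched for control level. By the difference of region values, none of the 358 changed by more than 5 points with smoke, against 0.200% of all such regions. Among the 21 F0 sperm regions between 10% and 90% in control WT, 14.3% changed by more than 5 points on average with smoke, against 14.2% of all such regions. With loss of NRF2 it was 4.76% against 27.1%, which for 21 regions is a single one. Above 90%, 2 of 23 regions changed so with smoke (8.70%, against 1.32% of all such regions). Smoked Nrf2-/- against control WT sperm also gave 2 of 23 (against 2.59%), and the other F0 comparisons gave 0.

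Examples of these DMRs, chosen after their values were seen, had wide spreads. A Barhl1 intron was at 58.9% ± 10.7 in control WT (n = 8) and at 47.5% ± 8.38 in smoked WT. By the rule, with position changes averaged, its change with smoke was -9.69 points. The intron was at 49.8% ± 5.92 in recovery 2 and 52.2% ± 11.6 in recovery 3. Coding sequence of Pax2 was at 36.9% ± 14.2 in control WT, 28.9% ± 9.39 in recovery 1 and 28.1% ± 12.3 in recovery 3. A stretch of 3 positions in the promoter of Foxa2, an endoderm and floor plate factor, was at 6.74% ± 7.12 in control WT, 2.00% ± 2.70 in recovery 3 and 14.5% ± 11.2 in smoked Nrf2-/- sperm. The SD of each was of the order of its change.

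In brain, the mean promoter level of the 52 genes with a scored promoter was 4.69% ± 0.248 in sons of control WT sires, 4.83% ± 0.292 in sons of smoked WT sires, 5.40% ± 0.576 in sons of control Nrf2-/- sires (lowest 4.76%, median 5.18%, highest 6.43%) and 4.78% ± 0.651 in sons of smoked Nrf2-/- sires (lowest 4.01%, median 4.67%, highest 5.94%; n = 8 each). Body levels were 9.51% ± 0.311, 9.70% ± 0.429, 10.1% ± 0.562 and 9.58% ± 0.602, and the first became 15.02% when every start was given a promoter. Sons of control Nrf2-/- sires thus had the highest mean, by 0.717 points in promoters and 0.613 in bodies over sons of control WT sires, and the libraries of all groups overlapped. Without Sox10, Pax8 and Tbx4 the promoter means were 2.58% ± 0.204 and 3.15% ± 0.653 in sons of control WT and control Nrf2-/- sires, a difference of 0.572 points, and the groups overlapped. Genotype of the sire and run of facility numbers coincide in this difference.

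No region of the 57 genes passed limma in brain either. The count was 0 of 475 in each of the 5 comparisons. Backgrounds were 0.00124% for smoked WT against control WT sires, 0.0124% for control Nrf2-/- against control WT, 0.0198% for smoked Nrf2-/- against control WT, 0.00124% for smoked against control Nrf2-/- and 0% for the difference of the smoke changes. At an unadjusted p below 0.05 the shares lay on either side of those over all regions. There were 22 for smoked WT against control WT (4.63%, against 4.14%), 45 for control Nrf2-/- against control WT (9.47%, against 7.72%), 33 for smoked Nrf2-/- against control WT (6.95%, against 10.4%), 33 for smoked against control Nrf2-/- (6.95%, against 9.60%) and 32 for the difference (6.74%, against 9.41%).

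Directions at the unadjusted level were uneven, and are given beside those over all regions. In sons of control Nrf2-/- sires, 44 of the 45 were higher, as were 5186 of the 6250 over all regions. With smoke in Nrf2-/- sires, 5 of the 33 were higher, as were 825 of the 7767. For smoked Nrf2-/- against control WT sires, 25 of the 33 were higher, against 3596 of the 8398. The median difference was 0.519 points against 0.408 over all regions in the first of these comparisons, -0.269 against -0.394 in the second and 0.262 against 0.00119 in the last.

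The regions with the smallest p in brain had overlapping groups in each comparison. In sons of smoked WT sires an untranslated exon of Foxa2 read 4.02% ± 1.21 (lowest 2.60%, median 3.63%, highest 5.81%) against 2.11% ± 0.610 (lowest 1.32%, median 2.20%, highest 3.31%). An intron of Lhx6, of cortical interneurons, read 6.79% against 4.31%, and the stretch upstream of Tbx18 6.62% against 10.1%, all 3 with a limma adjusted p that rounded to 1. In sons of control Nrf2-/- sires coding sequence of Lhx9 read 7.72% ± 2.34 against 3.79% ± 1.71 (limma adjusted p = 0.622), that of Gata2 3.54% against 2.06% (36 positions, 0.622) and a Pax3 intron 17.9% against 13.1% (0.641).

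In sons of smoked Nrf2-/- sires against control WT, an untranslated exon of Pax6 read 2.47% ± 1.62 against 0.199% ± 0.305 (limma adjusted p = 0.276), an intron of Sox9, of cartilage and glia, 2.68% against 0.860% (0.295) and an intron of Nkx2-1, of lung, thyroid and ventral forebrain, 4.30% against 2.00% (0.349). Against control Nrf2-/- sires, a Pax7 intron, chr4:139818178-139818248, read 23.9% ± 4.27 (lowest 19.3%, median 22.7%, highest 30.4%) against 30.4% ± 2.14 (lowest 28.5%, median 29.6%, highest 34.7%), a change of -6.52 points (SE 1.69, limma adjusted p = 0.266). Sons of control and smoked WT sires had 27.2% ± 3.74 and 29.997% ± 3.24 there, and the difference of the smoke changes was -9.32 points (SE 2.40, limma adjusted p = 0.278). An Lhx9 intron read 6.13% against 3.01% (0.309) and a Six3 intron 16.6% against 22.5% (0.336). For the difference of the smoke changes the next regions were the Lhx6 intron (-3.76 points, limma adjusted p = 0.311) and a stretch of the Dlx1 promoter (-11 points, 0.313).

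By the rule by size, sons of smoked WT sires had 15 DMRs of 475 in these genes (3.16%, against 8.33% of all regions; 12 higher, as were 5531 of 6743) and sons of control Nrf2-/- sires 14 (2.95%, against 7.53%; 10 higher, as were 4357 of 6097). Sons of smoked Nrf2-/- sires had 23 against control WT (4.84%, against 13.6%) and 39 against control Nrf2-/- sires (8.21%, against 16%). 38 of the 39 were lower, as were 12187 of the 12947 DMRs over all regions in that comparison. 20 of the 23 were lower too, as were 9964 of the 10976 DMRs over all regions. At the unadjusted limma level 25 of 33 regions of the comparison with control WT were higher, against 3596 of the 8398 over all regions. With smoked against control Nrf2-/- sires, Pax7 and Pax5 had 5 regions each. Both are long genes, with 237 (Pax7) and 348 (Pax5) scoreable body positions in brain. Without smoked Nrf2-/- column 2 the counts of 23 and 39 became 18 (3.79%, against 11.2% of all regions) and 30 (6.32%, against 13.7%), and that library lay 2.07 points below the brain mean over all regions. Leaving out libraries was added after the data were seen. Whether the offset of single libraries accounts for the direction was not tested. Of the 475 regions 360 lay below 10% in control WT, as did 26387 of all 80920. Between 10% and 90%, by region values, 10.9% changed by more than 5 points with smoked WT sires, against 16.5% of all such regions. With control and smoked Nrf2-/- against control WT sires it was 10.9% against 14.5% and 21.8% against 26%. Above 90%, 1 of 5 changed with smoked WT and with control Nrf2-/- sires, against 1.10% and 1.69%. With smoked Nrf2-/- against control WT sires 2 of 5 changed, and 5 regions are too few to be read as a share.

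Values of these brain DMRs, chosen after they were seen, overlapped between groups. In the Gata5 promoter, chr2:180335426-180335536, sons of control WT sires had 59.7% ± 5.93 (n = 5), of smoked WT sires 53.5% ± 14.8 (n = 6), of control Nrf2-/- sires 66.3% ± 13.1 (n = 7, lowest 45.2%, median 72.7%, highest 79.5%) and of smoked Nrf2-/- sires 47.7% ± 14.8 (n = 6, lowest 25.9%, median 46.4%, highest 68.8%). A Pax7 intron, chr4:139808049-139808163, was at 47.7% ± 8.77 with control and 35.3% ± 7.62 with smoked Nrf2-/- sires, and the stretch upstream of Six3 at 19.3% ± 9.91 and 9.84% ± 3.49. A stretch of 28 positions in the Sox10 promoter was at 63.2% ± 5.63 and 55.3% ± 5.87, and a stretch of 13 positions in the Pax8 promoter at 44.2% ± 4.26 and 37.7% ± 4.38. Coding sequence of Tbx18 was the only DMR of the 39 that was higher with smoke, at 39.7% ± 14.3 against 27.3% ± 7.02. An untranslated exon of Dlx1 showed how 1 library can set a mean. It was at 27.1% ± 27.9 in sons of control WT sires (lowest 5.56%, median 20.3%, highest 90.6%) and at 14.5%, 14.4% and 8.71% in the other groups.

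**Figure D5:**
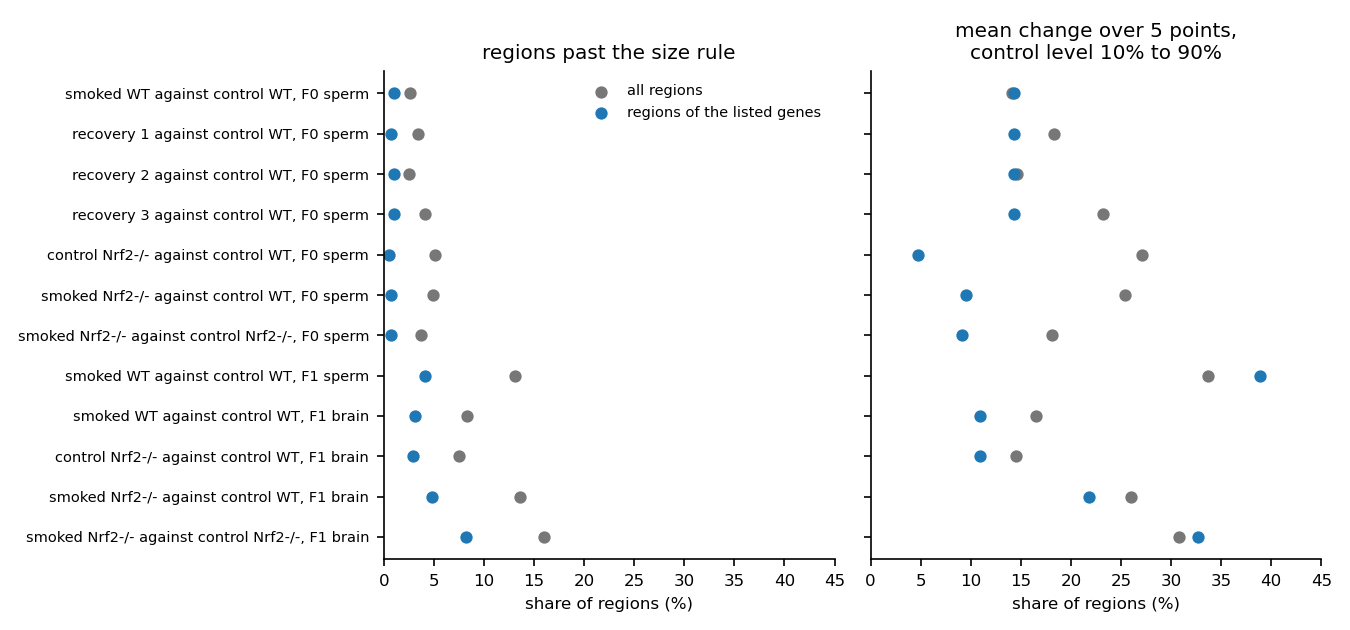
Left, share of regions (percent) called by the rule by size in each comparison, for regions of the listed genes and for all regions; right, share of regions at 10% to 90% in the control whose mean changed by more than 5 points. On the left, where regions are not matched for control level, the listed genes lie below all regions in each of the 12 comparisons. Shares run from 0.498% against 5.1% (control Nrf2-/- against control WT, F0 sperm) to 8.21% against 16% (smoked against control Nrf2-/- sires, brain). On the right the listed genes lie above all regions with smoke in WT F0 sperm (14.3% against 14.2%) and in F1 sperm (38.9% against 33.7%). They lie below in the other F0 comparisons and in the brain comparisons against control WT sires.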

How the data were processed

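RRBS libraries (MspI and TaqαI digestion, 50-cycle single reads) were aligned by the authors with Bismark to mm10, with the version not given in the sources used here. The deposited values are the percent of DNAme at each CpG position, in 13 tables with 1 column per library and 0 columns left unused. They carry no read counts, so depth is unknown and no counting interval can be given. The study's methods set a read minimum for scoreable positions, but the files do not show whether the deposited values had passed it.

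Positions were converted to 1-based coordinates and assigned to GENCODE M21 genes. The means over promoters and bodies used scoreable positions (a value in at least 4 libraries of every group). Regions joined scoreable positions at most 100 bp apart, with at least 3 positions and over 50 bp, and the segments compared between brain and sperm were promoters and bodies with at least 3 positions. A region's value in a library was its mean level plus the mean deviation of that library, and it needed at least 50% of the positions. Regions were tested with limma 3.58.1 in R 4.3.3 (two-sided, no variance trend, Benjamini-Hochberg over all regions of the tissue, 0.05), after a test on simulated data. The labels give no pairing, and libraries were treated as independent. Sperm and brain libraries may come from the same sons, and sons may share a sire or litter, which the labels do not show. The p-values thus measure the spread between libraries and not between sires. Sequences came from the GRCm38 reference and from RefSeq.

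Genes were named by rule: the highest and lowest promoter and body of each family, the 10 largest differences of body over promoter, the 20 called regions with the smallest p (3 where none was called) and the 15 called and up to 10 uncalled segments between brain and sperm. The 57 genes, the other gene lists and the tests were chosen with earlier results of these data known. 1 control WT F1 brain sample has a strain label that goes against its title and was grouped by the title. In a check for duplicates, no 2 libraries of a tissue shared more than 4.25% of the values compared. That share cannot cover all values, since 0% and 100% are frequent in each library. For example, control WT F0 sperm column 1 had 531320 and 194405 such values of 1161584.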

Additional observations from a re-analysis of the deposited data

Results flagged for a closer look

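In sons of smoked WT sires, 1 F1 sperm library (column 1) had a mean promoter level of 2.66% over the 57 genes, the lowest of 7, while the others lay between 3.03% and 3.18%. In brain of sons of smoked Nrf2-/- sires, the library in column 3 had a mean body level of 10.95%, the highest of 8. Each stood further from its group than Dixon's criterion allows. 26 groups of library means were examined and 2 held such a library, where chance alone gives about 1 in 20 groups.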

How the results depend on the processing

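No paired analysis was possible by replicate number because the table columns carry none that matches a label. The facility numbers of the WT F0 sperm groups run in sets of 1 library a group, and those of brain in sets of 2 control and 2 smoked libraries within a genotype. Deviations of libraries in a set had a median correlation over regions of -0.0021 in F0 sperm and 0.055 in brain (ranges -0.126 to 0.359 and -0.0839 to 0.469). A fit with the set as a block, chosen after seeing the data, called 0 regions of the 57 genes for smoke and recovery 1, 2 and 3 in F0 sperm and for smoke with WT and Nrf2-/- sires in brain. Numbers of the other groups did not form such sets, and that fit was not run for them. The count of 0 called regions for smoke, recovery and genotype held in each tissue under a variance trend, a logit scale, at least 6 libraries, joining up to 300 bp and a fit of the 2 groups alone. Leaving out libraries was not run for these fits, since no region of the 57 genes was called. Between brain and sperm, 88 of 146 regions were called in the main setting (60.3%, against 57.7% of all regions) and 19 of 23 with at least 6 libraries (82.6%, against 70.8%), which left fewer regions to test. On the logit scale 105 of 146 were called (71.9%, against 60.3%). The other alternatives kept the count within 1.5 times. Taking position means within each tissue, chosen after seeing the data, called 89 regions and 61 segments, the 59 segments of the main setting among them and with the same sign, and moved a segment's difference by at most 2.20 points (Sox10).

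The rule by size, with its change averaged over positions, depended on its settings. With a change over 10 points it called 0 regions in each of the 7 F0 comparisons (against 0.283% to 1.14% of all regions) and in F1 sperm (against 2.27%). In brain it called, of 475, 1 in smoked WT (0.211%, against 1.35%), 0 in control Nrf2-/- (against 0.870%), 6 in smoked Nrf2-/- against control WT (1.26%, against 3.60%) and 5 against control Nrf2-/- (1.05%, against 5.25%). With at least 6 libraries it called, of F0 sperm regions, 2 in recovery 2 and in recovery 3, and 1 each in control Nrf2-/-, in smoked Nrf2-/- and with smoke in Nrf2-/- males, of 345 each (0.290% to 0.580%, against 1.78% to 4.01% of all regions). In F1 sperm it then called 3 of 26 (11.5%, against 18.1% of all regions), and in brain 8 of 442 for each of smoked WT (1.81%, against 6.40%) and control Nrf2-/- sires (against 6.00%). Joined up to 300 bp it called 8 in recovery 1, 9 in recovery 3, 4 in control Nrf2-/-, 5 in smoked Nrf2-/- and 5 with smoke in Nrf2-/- males, of 346 regions each; the shares, 1.16% to 2.60%, lay below the 5.52% to 8.28% of all regions. Leaving out 1 brain library at a time, chosen after seeing the data, gave 15 to 20 in smoked WT (3.16% to 4.21%, against 7.59% to 11% of all regions) and 11 to 17 in control Nrf2-/- (2.32% to 3.58%, against 6.96% to 9.03%). In smoked Nrf2-/- it gave 18 to 29 against control WT (3.79% to 6.11%, against 11.2% to 15.9%) and 30 to 43 against control Nrf2-/- (6.32% to 9.05%, against 13.7% to 18%). The cause of these changes was not tested.

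Mean levels in control WT moved with the positions counted. Promoters were at 3.65% in F0 sperm and 0.715% in F1 sperm with positions valued in every library, and at 1.56%, 2.37% and 3.17% in F0 sperm, F1 sperm and brain when each position counted once. Without Sox10, Pax8 and Tbx4, chosen after seeing the data, they were at 0.861%, 1.07% and 2.58%. In F1 sperm they were at 3.57% when every transcript start had a promoter. Bodies in F0 sperm were at 12.9%, 12.6% and 8.02% with every start, every-library positions and each position once. The same settings gave 16.1%, 22.3% and 12.2% in F1 sperm and 15.02%, 6.91% and 9.94% in brain. Depth per position is unknown, so precision rests on the number of libraries alone.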

Other observations

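Upstream stretches of single genes, picked after their values were seen, differed between tissues. The stretch upstream of Nkx2-5, a heart factor, was at 87.0% ± 6.08 in control WT F0 sperm, at 90.8% ± 8.22 in F1 sperm (n = 4) and at 9.35% ± 2.36 in brain, over 3 positions. The stretch upstream of Dlx5, a factor of jaw and forebrain interneurons, was at 66.3% ± 5.43 and 63.6% ± 6.91 in sperm of F0 and F1 and at 79.3% ± 0.888 in brain, also over 3 positions.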
